A study of Mus musculus with 12 samples.

Results

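Lars2 and 8 other nuclear genes for mitochondrial aminoacyl-tRNA synthetases were followed through 12 RNA-seq libraries of mouse E14 cells, an embryonic stem cell (ESC) line. The 9 genes, of 52636 in the count tables, were Lars2, Aars2, Iars2, Vars2, Mars2, Nars2, Wars2, Yars2 and Sars2, and all 9 passed the filter on low counts at both stages. Lars2 was chosen because of its lower level in knockdown ESCs, and the other 8 were chosen to ask whether they shared that difference. The ESC difference is therefore described here without a test. The difference in embryoid bodies (EBs) was not the value that chose Lars2 and was tested, although results of the EB libraries were known when the genes were chosen.

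Each of 4 groups held 3 libraries: day 6 EBs with a knockdown (KD) of circKat6b-e2, wild-type (WT) day 6 EBs, KD ESCs and WT ESCs. circKat6b-e2 is a circular RNA of the Kat6b gene, and the titles mark the KD as made by shRNA. EBs are aggregates in which ESCs leave pluripotency and form cells of several lineages. The ESCs were grown on gelatin in serum with LIF and inhibitors of MEK and GSK3. Whether the WT cells had a control shRNA, and whether the KD line was 1 clone or many, is not given by the labels. Messenger RNA was selected on poly-T beads, which do not retain circular RNA, so the targeted molecule was not measured. The linear host transcripts of Kat6b differed by 0.98 on the log2 scale between KD and WT EBs (SE 0.06, higher in KD, edgeR adjusted p = 2.57e-15) and by 0.41 between KD and WT ESCs (SE 0.10, edgeR adjusted p = 0.0893).

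Aminoacyl-tRNA synthetases join each amino acid to its tRNA. Mitochondria translate a small set of respiratory chain subunits with their own ribosomes, and most of the synthetases they need are encoded in the nucleus by genes separate from those of the cytosolic enzymes. LARS2 charges the mitochondrial leucine tRNAs, and in humans inherited defects of LARS2 cause Perrault syndrome, with hearing loss and ovarian failure. By the structure of their catalytic domain the enzymes fall into class I, here those for leucine, isoleucine, valine, methionine, tryptophan and tyrosine, and class II, here those for alanine, asparagine and serine.

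The promoter of Lars2, the gene that sets the question, is shown beside that of Mars2, the member whose KD libraries lay above all WT libraries at both stages. Both sequences are RefSeq's for GRCm38.p6, from 250 bases before to 50 bases after the annotated start, on the plus strand at chr9:123366677-123366976 and chr1:55236927-55237226. Capitals mark matches to any of 5 motifs searched on both strands.
Lars2: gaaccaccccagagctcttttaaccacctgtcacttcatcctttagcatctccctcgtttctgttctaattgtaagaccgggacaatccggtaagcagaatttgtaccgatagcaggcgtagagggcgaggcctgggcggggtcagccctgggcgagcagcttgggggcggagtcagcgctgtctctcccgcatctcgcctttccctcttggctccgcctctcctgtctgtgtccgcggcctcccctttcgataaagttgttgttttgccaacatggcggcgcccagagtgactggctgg
Mars2: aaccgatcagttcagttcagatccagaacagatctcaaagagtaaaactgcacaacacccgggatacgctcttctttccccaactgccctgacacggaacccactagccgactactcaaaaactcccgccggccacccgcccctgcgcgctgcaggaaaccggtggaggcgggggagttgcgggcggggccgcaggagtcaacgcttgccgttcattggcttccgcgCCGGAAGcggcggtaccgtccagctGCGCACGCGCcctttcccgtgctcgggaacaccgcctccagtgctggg
The motifs were chosen with earlier results known: the ETS motif CCGGAAG, the NRF1 motif (GCGCA, any base, GCGC), the E-box CACGTG, the amino acid response motif TGATGNAA and the YY1 motif AAGATGGC. Only exact matches to these letters, with N as any base, were counted, so a window without a match may still hold a near match. The Lars2 window, with 58.3% G and C and 18 CpG sites, held none of the 5 motifs. The Mars2 window held 1 ETS match and 1 NRF1 match, which lie apart in the sequence. An NRF1 match also stood in the Iars2 window, an ETS match in the Sars2 window, and a YY1 match in those of Aars2, Wars2 and Yars2, whereas the Vars2 and Nars2 windows held no match. Among all 32851 RefSeq promoters of this length, 8.86% held the ETS motif, 4.60% the NRF1 motif, 7.15% the E-box, 3.97% the amino acid response motif and 2.75% the YY1 motif.

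Library totals ran from 25.4 to 37.8 M counts, and each member had at least 169 counts in every library. WT replicate 2 of the ESCs stood apart: the chi-square per gene was 60.9 and 61.7 for the replicate pairs that held it, against 4.96 to 9.57 for all other pairs. Levels are counts scaled to library size, in the usual unit CPM. ESC markers such as Pou5f1 and Nanog summed to 450 to 503 CPM in KD EBs, 226 to 237 CPM in WT EBs, 9307 to 9849 CPM in KD ESCs and 9182 to 11269 CPM in WT ESCs. Markers of differentiated lineages summed to 2437 to 2522 CPM in KD EBs, 1392 to 1406 CPM in WT EBs, 8.70 to 9.98 CPM in KD ESCs and 7.31 to 11.5 CPM in WT ESCs. Mesenchyme markers summed to 599 to 612 CPM in KD EBs, 382 to 393 CPM in WT EBs, 23.6 to 28.7 CPM in KD ESCs and 27.0 to 37.2 CPM in WT ESCs. In KD EBs 8 of 9 ESC markers were higher and 0 lower, 9 of 15 differentiation markers higher and 4 lower, and 4 of 6 mesenchyme markers higher and 1 lower, where 28.0% of all genes tested were higher and 27.7% lower. The part of these cell type markers in the results for the synthetases was not tested. In such bulk libraries, fewer cells of a type and less RNA per cell cannot be told apart.

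Lars2 (ENSMUSG00000035202, chr9:123366927-123462666, plus strand, GRCm38) had 138, 117 and 122 CPM in KD ESCs, against 314, 420 and 292 CPM in WT ESCs. Every KD library lay below every WT library, and the highest WT value was that of replicate 2. The means were 125.6 ± 11.05 CPM in KD and 342 ± 68.7 CPM in WT ESCs (SD, n = 3 each), a log2 fold change of −1.44 (SE 0.13), or 0.369 times the WT level. Without WT replicate 2 the log2 fold change was −1.27 (SE 0.06).

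In EBs the leucine enzyme showed no such difference. Lars2 had 72.5, 61.3 and 64.7 CPM in KD EBs, against 63.1, 59.7 and 61.7 CPM in WT EBs. The groups overlapped, with a log2 fold change of 0.05 (SE 0.05) that did not pass (edgeR quasi-likelihood test, adjusted p = 0.482), and its sign turned without KD replicate 1 (−0.03, adjusted p = 0.708). Taken as a description, since the ESC libraries entered the choice of the gene, the KD effect in EBs minus that in ESCs was 1.55 on the log2 scale (SE 0.16). EBs minus ESCs, Lars2 stood at −0.92 on the log2 scale in KD cells (SE 0.11) and at −2.48 in WT cells (SE 0.12).

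**Figure D1:**
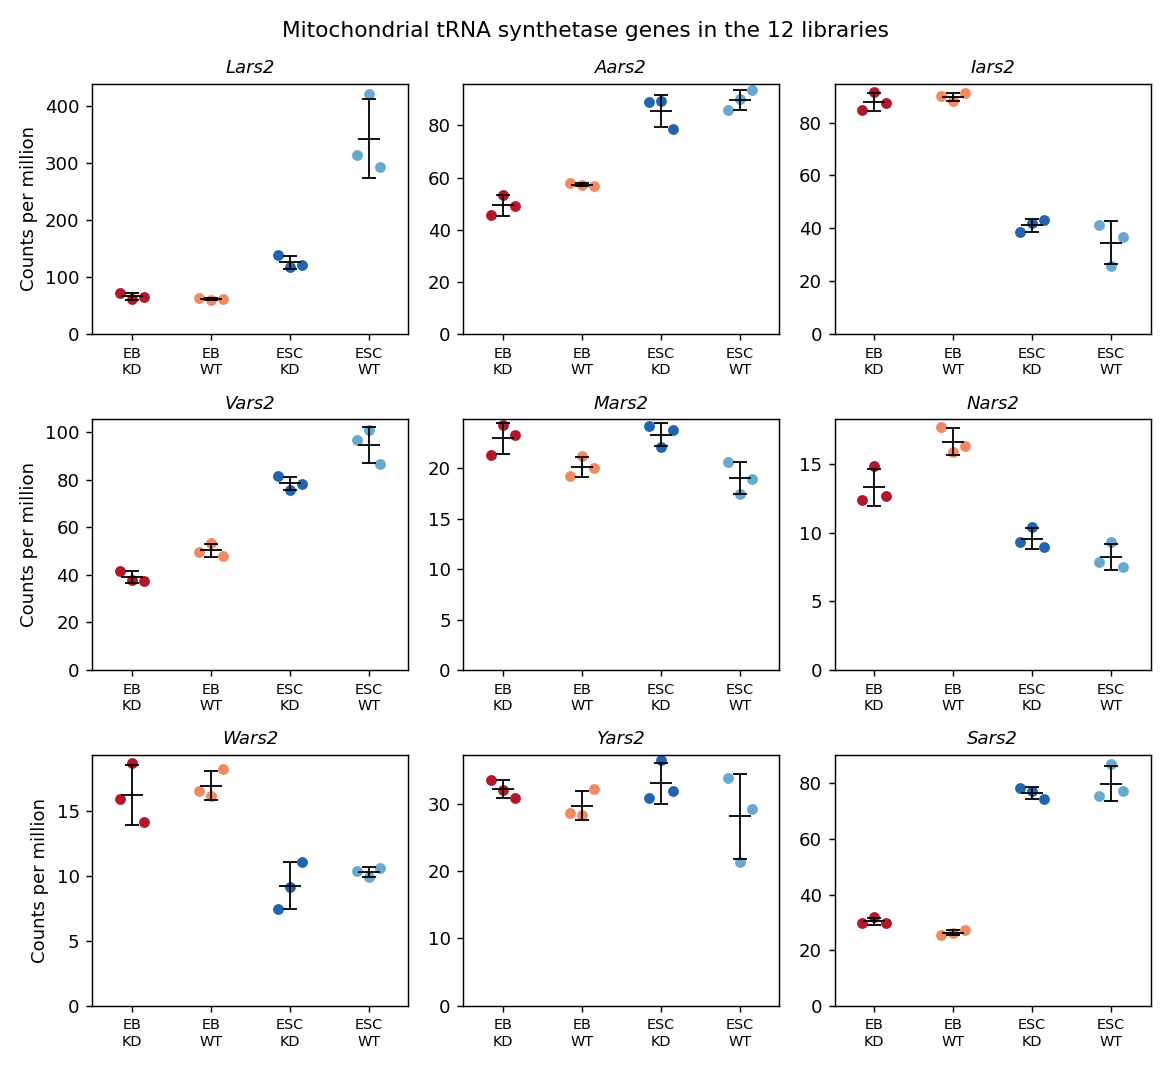
Level of each of the 9 genes in CPM (vertical axes start at 0 and differ between panels) in KD and WT EBs and KD and WT ESCs; points are libraries, black bars the mean ± SD (n = 3). The 3 WT ESC libraries of Lars2 lie at 292 to 420 CPM, above the other 9 libraries; the WT ESC libraries of Vars2 also lie highest, at 86.3 to 100.8 CPM, with a smaller step.

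None of the other 8 members had an ESC difference near that of Lars2. Their log2 fold changes in ESCs ran from −0.26 to 0.30 with a median of 0.09, 4 below 0 and 4 above, where the median over all 16081 genes tested was 0.01. Their summed level was 357 ± 6.57 CPM in KD ESCs and 364 ± 6.22 CPM in WT ESCs. Lars2 stood at 3.81 ± 0.43 times the geometric mean of the other 8 in KD ESCs, against 10.9 ± 2.64 times in WT ESCs. In EBs the ratio was 2.15 ± 0.27 in KD and 1.91 ± 0.06 in WT cells. The highest KD ESC ratio, 4.29, was below the lowest WT ESC ratio, 9.22.

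Vars2, the valine enzyme, was the other member whose KD ESC libraries all lay below the WT libraries. It had 81.3, 75.8 and 78.0 CPM in KD ESCs, against 96.4, 100.8 and 86.3 CPM in WT ESCs (log2 fold change −0.26, SE 0.08). Mars2, the methionine enzyme, lay the other way, at 24.2, 22.1 and 23.8 CPM in KD ESCs, against 20.7, 17.5 and 19.0 CPM in WT ESCs (log2 fold change 0.30, SE 0.12). Lars2 and Vars2 were thus 2 members without overlap below WT and Mars2 1 without overlap above it. Over all genes tested in ESCs, 16.0% had KD libraries that did not overlap with and lay below WT, and 14.5% lay above; nothing is read from the members' counts, since this contrast chose Lars2.

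In the remaining 6 members KD and WT ESCs overlapped. Isoleucine's Iars2 averaged 41.2 ± 2.37 CPM in KD ESCs and 34.6 ± 8.03 CPM in WT ESCs (log2 fold change 0.26, SE 0.15). Tyrosine's Yars2 averaged 33.0 ± 3.00 CPM in KD ESCs and 28.1 ± 6.32 CPM in WT ESCs (0.24, SE 0.16). The lowest WT value of both genes was that of replicate 2, at 25.7 CPM for Iars2 and 21.3 CPM for Yars2, and without it the log2 fold changes were 0.08 for Iars2 (SE 0.09) and 0.07 for Yars2 (SE 0.11). The log2 fold changes of the other 4 were 0.23 for Nars2 (SE 0.18), −0.06 for Aars2 (SE 0.08), −0.05 for Sars2 (SE 0.08) and −0.15 for Wars2 (SE 0.18). Scaling by library size alone, which moved the median over all ESC genes to 0.12, put Aars2 at 0.05 and Sars2 at 0.07, and leaving out WT replicate 2 put Sars2 at 0.01.

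**Figure D2:**
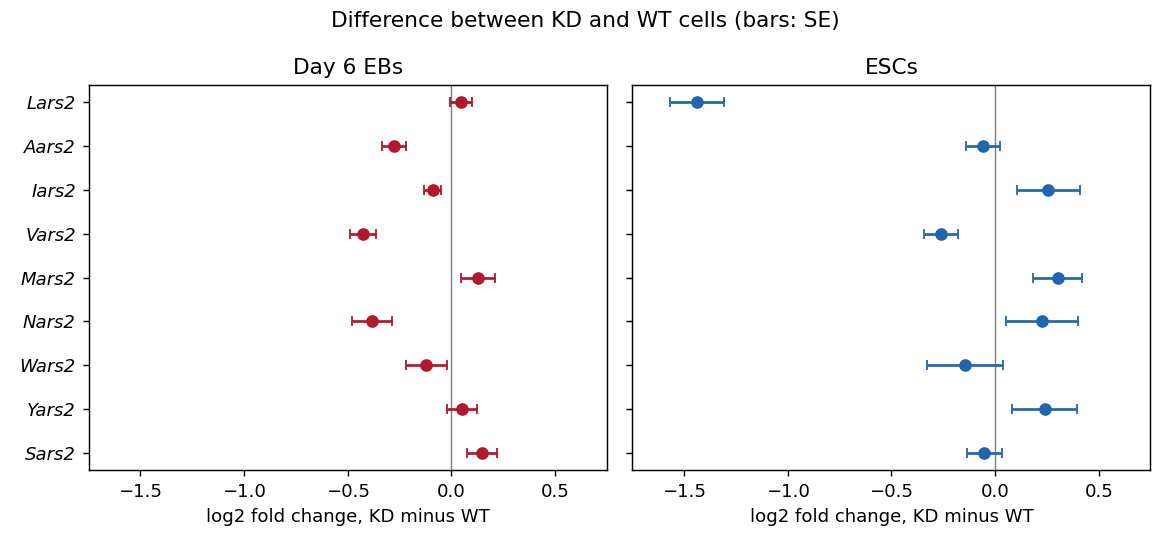
Log2 fold change of KD minus WT (horizontal axis; points, with bars of 1 SE) for each gene in day 6 EBs (left) and ESCs (right). In ESCs Lars2 lies at −1.44 while the other 8 lie between −0.26 and 0.30; in EBs the 9 genes lie between −0.43 and 0.15.

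In day 6 EBs 3 of the 9 members were lower in KD cells and 0 higher by edgeR's test, with 6 not called. Over all 17355 genes tested in EBs, 27.7% were lower and 28.0% higher, and 55.7% either way, so 3 of 9 members lower is near the background. At an unadjusted p under 0.05 there were 4 lower and 1 higher, and DESeq2 called 3 lower and 0 higher. Over all genes, 10386 of 17355 had an unadjusted p under 0.05 in either direction. The median log2 fold change of the 9 was −0.09, against 0.00 over all genes.

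The 3 called members were those for valine, asparagine and alanine. Vars2 had 41.8, 37.8 and 37.4 CPM in KD EBs, against 49.7, 53.3 and 47.7 CPM in WT EBs, and fell by 0.43 on the log2 scale (SE of 0.06, edgeR adjusted p = 8.04e-07). Nars2 had 12.4, 14.9 and 12.7 CPM in KD EBs, against 17.8, 15.9 and 16.3 CPM in WT EBs (−0.38, SE of 0.10, edgeR adjusted p = 0.00125). All KD libraries of both genes lay below all WT libraries. Aars2 had 45.5, 53.5 and 49.0 CPM in KD EBs, against 58.0, 57.2 and 56.8 CPM in WT EBs, again without overlap (−0.28, SE 0.06, edgeR adjusted p = 0.000105). Nars2 lost its call when all 12 libraries entered 1 fit (−0.32, edgeR adjusted p = 0.0722).

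Mars2 and Sars2, the serine enzyme, had KD EB libraries that all lay above WT but did not pass. Sars2 had 29.7, 32.0 and 29.9 CPM in KD EBs, against 25.5, 26.3 and 27.2 CPM in WT EBs (a difference of 0.15 on the log2 scale, SE of 0.07, edgeR adjusted p = 0.0791). Mars2 had 21.3, 24.3 and 23.3 CPM in KD EBs, against 19.2, 21.2 and 20.05 CPM in WT EBs (0.13, SE of 0.08, edgeR adjusted p = 0.192). So 3 members lay below without overlap and 2 above; over all genes tested in EBs the shares were 26.1% below and 35.0% above. Sars2 gained a call in the fit of all 12 libraries (0.21, edgeR adjusted p = 0.0390). Iars2 (−0.09, SE 0.04, edgeR adjusted p = 0.0737), Wars2 (−0.12, SE 0.10, adjusted p = 0.312) and Yars2 (0.05, SE 0.07, adjusted p = 0.566) overlapped between groups. Iars2 gained a call without KD replicate 2 (−0.12, edgeR adjusted p = 0.0437).

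Between stages the members went different ways, and EBs minus ESCs is given as a description because it shares the ESC libraries. In WT cells the genes higher in EBs were Iars2, with a log2 fold change of 1.37 (SE 0.12), Nars2 with 1.02 (SE 0.14) and Wars2, the tryptophan enzyme, with 0.72 (SE 0.15). Mars2 and Yars2 both stood at 0.08 (SE 0.10 and 0.13). Lower in EBs were Aars2 at −0.65 (SE 0.07), Vars2 at −0.91 (SE 0.08), Sars2 at −1.60 (SE 0.08) and Lars2 at −2.48. In KD cells the values were 1.09 for Iars2, 0.81 for Wars2, 0.47 for Nars2, −0.02 for Mars2, −0.04 for Yars2, −0.80 for Aars2, −0.92 for Lars2, −1.01 for Vars2 and −1.33 for Sars2. Lars2 was thus the member farthest below 0 in WT cells, whereas in KD cells Vars2 and Sars2 lay below it.

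Levels of different genes were set side by side per kb of listed exon length. Lars2 held the first place in WT ESCs, at 30.8 ± 6.19 CPM per kb, overlapping Aars2 at 26.8 ± 1.15 CPM per kb, which itself overlapped Sars2 at 24.1 ± 1.90 CPM per kb. In KD ESCs Lars2 was the fourth, at 11.3 ± 1.00 CPM per kb, overlapping Yars2 at 10.5 ± 0.95 CPM per kb, and Aars2 (25.6 ± 1.83 CPM per kb) and Sars2 (23.1 ± 0.64 CPM per kb) led and overlapped. In EBs Lars2 came at the sixth place in both groups, at 5.97 ± 0.52 CPM per kb in KD and 5.54 ± 0.15 CPM per kb in WT EBs, overlapping neither neighbour in the order. Aars2 led the order in EBs, with 14.7 ± 1.20 CPM per kb in KD and 17.1 ± 0.18 CPM per kb in WT EBs. Iars2, Yars2 and Sars2 overlapped in a row behind it in KD EBs, at 9.21 to 10.2 CPM per kb, as did Iars2, Yars2 and Vars2 in WT EBs, at 9.21 to 10.1 CPM per kb. Wars2, Mars2 and Nars2 filled the last 3 places in all 4 groups, between 1.18 and 2.86 CPM per kb. The listed exon length of Lars2 is 11089 bases, against 3894 bases in its longest coding transcript (21 exons), and 5 of its 9 GENCODE transcripts are retained introns. A longer listed length gives a lower per kb level. This also bears on Mars2, whose listed length of 11294 bases is the longest of the 9. Without scaling by length, Wars2, Mars2 and Nars2 still had the lowest mean CPM in each group. Mars2 was then the highest of them, with group means of 19.0 to 23.4 CPM.

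The counts named no strand, so reads over exons shared with a gene on the opposite strand may be affected. Of the 8885 exon bases of Iars2, 2034 overlap Rab3gap2, a gene of up to 87.3 CPM. Vars2 shared 465 bases with Gm20483 (0 CPM in every library) and Nars2 284 bases with C230038L03Rik (at most 0.32 CPM). Reads over shared bases may be missing from both genes, so a partner's low CPM does not show that the member was unaffected. Lars2 shared no exon base with another gene.

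A locus annotated as ribosomal RNA, CT010467.1 (chr17:39846353-39848827, minus strand), was named because it stood second of 11015 genes in likeness to Lars2 over the 6 ESC libraries. Its ESC values are therefore a description with no test. It had 109, 77.5 and 79.2 CPM in KD ESCs, against 336, 504 and 302 CPM in WT ESCs (log2 fold change −2.10, SE 0.23). WT replicate 2 was the highest library, as for Lars2, and the other 2 WT libraries also lay above the KD libraries. In EBs it had 107.7, 100.4 and 79.9 CPM in KD, against 79.1, 87.3 and 80.6 CPM in WT, and was not called (0.16, SE 0.13, edgeR adjusted p = 0.377). Gm42418 and AY036118, whose coordinates lie within CT010467.1, had 0 counts in every library. The counts named no strand, so these 0 counts cannot tell silent loci from reads left out over shared bases. The level of CT010467.1 may likewise come from only part of the locus.

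Gm26917, a noncoding gene next to CT010467.1, averaged 493 ± 38.1 CPM in KD ESCs and 742 ± 154 CPM in WT ESCs, with no overlap (log2 fold change −0.58, SE 0.13, edgeR adjusted p = 0.0727). In EBs it was lower in KD, at 194 ± 7.76 CPM against 215 ± 12.1 CPM in WT (−0.21, SE 0.04, edgeR adjusted p = 2.4e-05). Of the mitochondrial ribosomal RNAs, neither was called in ESCs. There mt-Rnr1 averaged 395 ± 10.9 CPM in KD and 360 ± 16.5 CPM in WT (0.14, edgeR adjusted p = 0.266), and mt-Rnr2 256 ± 3.88 CPM in KD and 240 ± 35.6 CPM in WT (0.10, edgeR adjusted p = 0.565). In EBs the counts of both were lower in KD. There mt-Rnr1 had 77.4 ± 2.25 CPM in KD, against 210 ± 10.0 CPM in WT (−1.50, SE 0.04, edgeR adjusted p = 1.39e-23). For mt-Rnr2 the values were 238 ± 16.7 CPM in KD and 333 ± 7.89 CPM in WT (−0.55, SE 0.04, edgeR adjusted p = 2.04e-10). RNA was selected on poly-T beads, so counts at ribosomal RNA loci, CT010467.1 included, may follow what the beads retained. They need not give the level of ribosomal RNA in the cells, which was not tested.

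**Figure D3:**
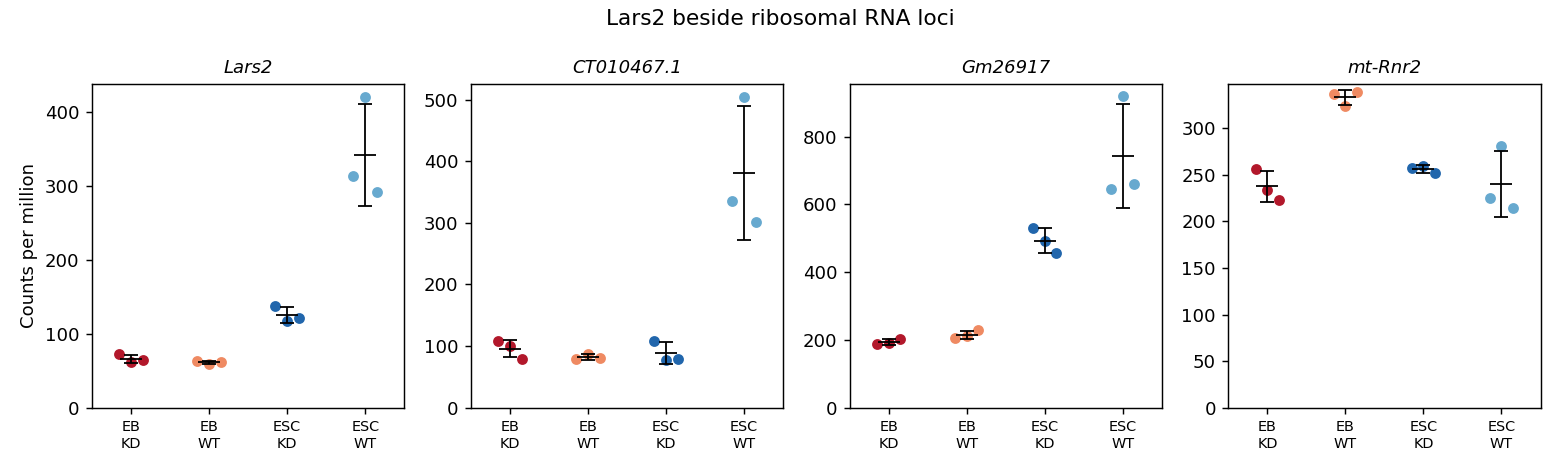
Levels in CPM (vertical axes start at 0 and differ) of Lars2, the ribosomal RNA locus CT010467.1, its neighbour Gm26917 and the mitochondrial ribosomal RNA mt-Rnr2 in the 4 groups; points are libraries, black bars the mean ± SD (n = 3). CT010467.1 lies at 302 to 504 CPM in the WT ESC libraries and between 77.5 and 109 CPM in the other 9.

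Lars2 also shares sequence with other loci. When its longest coding transcript was aligned to all GENCODE transcripts with blastn, 2 other genes matched, both within the last exon, after the stop codon. Gm15564 matched over 72 bases at 98.6% identity (chr9:123462048-123462119 in Lars2), and AA474408 over an alignment of 196 bases at 80.1% identity (chr9:123461933-123462119). Neither gene is annotated as ribosomal RNA, and CT010467.1 was not among the matches of this transcript. The transcript has 3894 bases, against 11089 bases of listed exons over which Lars2 was counted. Matches of the other exon bases were not examined. Gm15564 and AA474408 were added after the data were seen and had few counts, 274 and 397 over the 12 libraries. Gm15564 averaged 0.53 ± 0.28 CPM in KD ESCs and 2.23 ± 1.42 CPM in WT ESCs (log2 fold change −2.06 with an SE of 0.60, edgeR adjusted p = 0.105), and AA474408 0.87 ± 0.69 CPM in KD and 1.28 ± 0.45 CPM in WT ESCs (−0.54, SE 0.65, edgeR adjusted p = 0.667). The part of ribosomal RNA loci and of shared sequence in the ESC level of Lars2 was not tested.

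Genes most like Lars2 were named by the Pearson correlation of log2 CPM among 11015 genes. Over the 12 libraries these were Sympk, a scaffold of mRNA 3′ end processing, Apom, an apolipoprotein, Alpk3, an atypical kinase, Copz2, a coatomer subunit, and Itgb3bp, a centromere protein. Their log2 fold changes in ESCs were −0.26 for Sympk (SE 0.08), −1.27 for Apom (SE 0.19), −0.68 for Alpk3 (SE 0.09), −0.73 for Copz2 (SE 0.13) and −0.54 for Itgb3bp (SE 0.13). Over the 6 ESC libraries the 5 were Alpk3, CT010467.1, Platr17, Tinf2, a telomere protein, and Pcbp4, an RNA-binding protein. No member of the 9 and no gene of the translation lists was among them. The libraries fall into separate groups, so likeness here is mostly likeness of group levels.

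None of the tested genes near Lars2 had an ESC log2 fold change as low as its own. Some of their values were imprecise, and the lowest, −0.83, had an SE of 0.63. Of 39 genes that start within 500 kb of it, 19 were tested in ESCs and 0 were called by edgeR (1 higher and 0 lower at an unadjusted p under 0.05, and 1 higher by DESeq2), with log2 fold changes from −0.83 to 0.85 and a median of 0.10. Called genes made up 0.603% of all genes tested in ESCs, 0.168% higher and 0.435% lower. At an unadjusted p under 0.05 the count over all genes was 3447 of 16081, in either direction. In EBs 20 were tested, of which 5 were higher and 3 lower, with a median of 0.07; over all genes 28.0% were higher and 27.7% lower.

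Other genes of the same pathway were counted by the same tests, from lists chosen with earlier results known. Over all genes tested, edgeR called 0.603% in ESCs and 55.7% in EBs. An unadjusted p under 0.05 was held by 3447 of 16081 genes in ESCs and 10386 of 17355 in EBs, in either direction. The other mitochondrial synthetases and amidotransferase genes had 0 of 14 called in ESCs (0 higher and 2 lower at an unadjusted p under 0.05, 0 by DESeq2), with a median log2 fold change of 0.00. In EBs 2 were higher and 7 lower (median −0.17), where 28.0% of all genes tested were higher and 27.7% lower. Rars2, the arginine enzyme, rose to 32.0 ± 1.48 CPM in KD EBs, against 25.6 ± 1.44 CPM in WT (0.26, edgeR adjusted p = 0.00338). Gatb, a subunit of the amidotransferase that makes glutaminyl-tRNA, had a log2 fold change of 0.24 (edgeR adjusted p = 0.0454). Mtfmt, which formylates the initiator methionyl-tRNA, fell to 13.6 ± 1.24 CPM in KD EBs, against 17.3 ± 0.89 CPM in WT (−0.40, edgeR adjusted p = 0.000548), and Qrsl1, another amidotransferase subunit, had −0.34 (edgeR adjusted p = 0.00108).

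Cytosolic synthetases and their cofactors had 0 of 22 called in ESCs (4 higher and 3 lower at an unadjusted p under 0.05, 1 lower by DESeq2) and 3 higher and 13 lower in EBs (median −0.14), beside the same shares over all genes. The balance of directions within these lists was not tested. Tars, for threonine, rose to 139 ± 2.79 CPM in KD EBs, against 101 ± 4.53 CPM in WT (0.41, edgeR adjusted p = 5.11e-10), and Qars, for glutamine, fell to 159 ± 3.87 CPM in KD EBs, against 213 ± 4.56 CPM in WT (−0.48, edgeR adjusted p = 3.35e-13). Hars (0.14) and Tarsl2 (−0.41) were the other 2 named by rule, with edgeR adjusted p of 0.0105 and 0.0142.

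Genes that mature mitochondrial tRNA had 0 of 19 called in ESCs (1 higher and 1 lower at an unadjusted p under 0.05, 0 by DESeq2) and 3 higher and 6 lower in EBs. Over all genes tested in EBs, 28.0% were higher and 27.7% lower. Trit1, which modifies tRNA near the anticodon, fell to 15.2 ± 0.13 CPM in KD EBs, against 25.7 ± 1.91 CPM in WT (−0.82, edgeR adjusted p = 1.02e-09), and Prorp, the nuclease of tRNA 5′ ends, had −0.41 (edgeR adjusted p = 0.000246). Nsun3, a tRNA methyltransferase, had 0.49 (edgeR adjusted p = 0.0109) and Trnt1, which adds the CCA end, 0.29 (edgeR adjusted p = 0.000278). Translation factors had 0 of 16 called in ESCs (1 higher and 1 lower at an unadjusted p under 0.05, 0 by DESeq2) and 5 higher and 6 lower in EBs. Those EB counts stand beside the same shares over all genes. Rmnd1 had a log2 fold change of 0.41 (edgeR adjusted p = 0.00024) and Mtrf1l, a release factor, one of 0.32 (edgeR adjusted p = 0.0213). Mtrf1, another release factor, had −0.51 (edgeR adjusted p = 0.0154) and the ribosome recycling factor Mrrf −0.62 (edgeR adjusted p = 8.71e-06).

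Of 82 mitochondrial ribosomal proteins tested in EBs, 36 were lower in KD and 4 higher (median −0.12), beside 27.7% lower and 28.0% higher over all genes. Mrpl38 fell to 43.6 ± 2.66 CPM in KD EBs, against 70.7 ± 2.13 CPM in WT (−0.76, edgeR adjusted p = 1.69e-13), and Mrpl23 to 41.1 ± 3.73 CPM in KD EBs, against 58.6 ± 3.28 CPM in WT (−0.57, edgeR adjusted p = 3.06e-09). Mrpl20 (0.35, edgeR adjusted p = 0.000309) and Mrps26 (0.21, edgeR adjusted p = 0.0206) rose. In ESCs 0 of 82 were called by edgeR, although 40 were lower and 2 higher at an unadjusted p under 0.05 and DESeq2 called 19 lower and 0 higher (median −0.22, against 0.01 over all genes). Without WT replicate 2 edgeR called 26 lower and 2 higher in ESCs. With no library left out, 3447 of all 16081 genes tested in ESCs had an unadjusted p under 0.05 in either direction.

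Of the mitochondrially encoded mRNAs, which the mitochondrial synthetases serve to translate, 7 of 12 were higher in KD EBs and 1 lower, beside 28.0% higher and 27.7% lower over all genes. mt-Cytb rose to 2218 ± 72.2 CPM in KD EBs, against 965 ± 15.4 CPM in WT (1.14, edgeR adjusted p = 4.73e-25). mt-Nd4l had 0.96 (edgeR adjusted p = 0.00916), and mt-Co1 fell to 6310 ± 258 CPM in KD EBs, against 7499 ± 127 CPM in WT (−0.31, edgeR adjusted p = 2.07e-09). In ESCs mt-Nd2 alone was called, higher in KD at 1246 ± 9.34 CPM against 859 ± 110 CPM in WT (0.54, edgeR adjusted p = 0.0380), a call lost without any 1 of the KD replicates or without WT replicate 1; without WT replicate 2, 5 of the mRNAs were higher. At an unadjusted p under 0.05, 5 were higher and 0 lower, and DESeq2 called 5 higher and 0 lower. All mitochondrial genes together took 1.53% to 1.66% of counts in KD EBs, 1.49% to 1.55% in WT EBs, 1.57% to 1.70% in KD ESCs and 1.32% to 1.35% in WT ESCs. Counted levels of the tested mRNAs lay far apart, from 1.48 to 6310 CPM in KD EBs. No option for multiply aligned reads was named, so these levels and shares may miss reads. How many were left out was not tested.

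Integrated stress response genes, a programme that includes targets of ATF4 such as cytosolic synthetase genes, had 0 of 8 called in ESCs (1 higher and 1 lower at an unadjusted p under 0.05, 0 by DESeq2). In EBs Atf5 (0.61, edgeR adjusted p = 8.15e-08) and Sesn2 (0.33, edgeR adjusted p = 1.82e-07) rose. Trib3 (−0.90, edgeR adjusted p = 6.81e-05), Atf4 (−0.27, edgeR adjusted p = 2.35e-06) and Asns (−0.26, edgeR adjusted p = 9.46e-06) fell. Ddit3, Chac1 and Nupr1 were not called. Over all genes tested in EBs, 28.0% were higher and 27.7% lower.

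**Figure D4:**
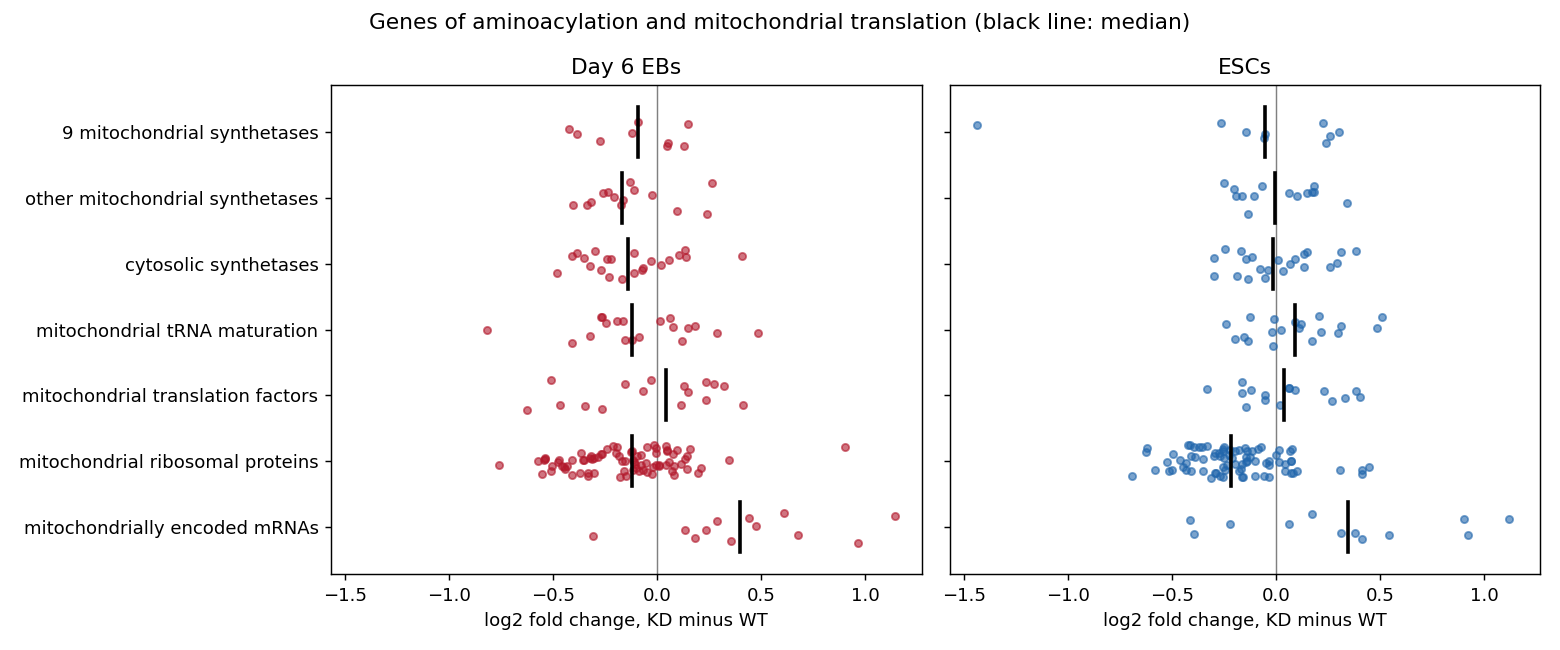
Log2 fold change of KD minus WT (horizontal axis) for each tested gene of the 9 members and of 6 lists, in day 6 EBs (left) and ESCs (right); each point is a gene, the black line the median, and vertical scatter within a row carries no value. Lars2 at −1.44 in ESCs lies below every other gene shown, and the mitochondrial ribosomal proteins have a median of −0.22 in ESCs and −0.12 in EBs.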

How the data were processed

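Each stage came as 1 deposited table of raw gene counts. Per the file headers, the authors counted with featureCounts 2.0.3 on the Ensembl annotation of GRCm38, requiring both ends of a pair to map and leaving out chimeric pairs; no option for strand or multiply aligned reads was named. HISAT2 2.1.0, mm10 and DESeq2 1.18.1 are named in the submitters' processing notes. Within a stage, KD and WT libraries were compared by edgeR's quasi-likelihood test (edgeR 4.0.16, R 4.3.3) with TMM normalization, filterByExpr (count of at least 10, total of at least 15), robust dispersions and no covariate. A gene was called when its p, adjusted by Benjamini-Hochberg over all genes tested, was under 0.05. Log2 fold changes are given as KD minus WT, or as EB minus ESC. CPM used 1 TMM normalization over all 12 libraries, so ratios of CPM differ slightly from fold changes within a stage. DESeq2 1.42.0, other scalings, no filter, 1 fit of all 12 libraries, a replicate block and leaving out each library were tried as alternatives. The code was tested on simulated data.

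The members and lists were chosen with earlier results of these data known. Named genes were the members, up to 2 called genes in each direction per list, lists of up to 8 genes, the 5 most like Lars2 (mean log2 CPM of at least 2) and the targeted gene; Asns, Ddit3, Chac1 and Nupr1 belong to a list of 8. Symbols were matched for 52403 of 52636 genes. Replicate numbers showed no sign of pairing: the correlation of deviations of KD and WT libraries with 1 number ran from −0.017 to 0.019 in ESCs and from −0.017 to 0.011 in EBs. Libraries with different numbers gave −0.032 to 0.022 in ESCs and −0.015 to 0.017 in EBs. Library totals were 25.4 to 37.8 M. The series states that replicates were biological. Shared sequence was sought with blastn 2.17.0 (E value up to 1e-10) in GENCODE transcripts.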

Additional observations from a re-analysis of the deposited data

Results flagged for a closer look

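For mt-Rnr1 all KD libraries lay below WT in EBs (log2 fold change −1.50) and above WT in ESCs (0.14); the difference between stages was not tested. For Gm15564, a locus of few counts that shares sequence with Lars2, all KD libraries lay above WT in EBs (0.93) and below WT in ESCs (−2.06); this difference was not tested either.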

How the results depend on the processing

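The ESC log2 fold change of Lars2 ran from −1.54 to −1.27 over 12 alternatives. In EBs Lars2 was called in 0 of 12 (−0.026 to 0.11, edgeR or DESeq2 adjusted p from 0.154 to 0.786), and its direction turned without KD replicate 1 (−0.026); leaving out 1 library gave −0.026 to 0.10. Aars2 and Vars2 remained called in EBs in all 12, and Nars2 in 11. Between 3 and 4 members were called in EBs. The number of genes called in ESCs depends on the setting: 97 as reported, 266 with a replicate block, 36 by library size alone, 1769 without a filter, 909 by DESeq2, 1999 with all 12 libraries in 1 fit, and 8 to 1557 when 1 library was left out, highest without WT replicate 2 and below 97 without WT replicate 1 (23) or any 1 of the KD libraries (8 to 10), with WT replicate 3 left out at 296. Of the calls, 27.8% were higher as reported, 48.5% with all 12 libraries, 39.0% without a filter, 40.1% without WT replicate 2 and 12.5% without KD replicate 3. The cause was not tested. The replicate numbers showed no sign of pairing. The block gave 9655 calls in EBs, against 9667 without it, and 266 in ESCs, against 97 without it. With all 12 libraries in 1 fit, EB calls came to 6650 (57.2% higher, against 50.3%), with 4 of the other mitochondrial synthetases, 3 of the tRNA maturation genes, 5 of the translation factors, 23 of the mitochondrial ribosomal proteins and 5 of the mitochondrially encoded mRNAs; without EB WT replicate 3, 7 translation factors were called. Of the mitochondrially encoded mRNAs, 5 were called in ESCs without a filter, 5 with all 12 libraries, 3 by library size alone and 2 with the block. In ESCs 34 mitochondrial ribosomal proteins were called without a filter, 25 with all 12 libraries in 1 fit, and 4 with the block or without WT replicate 3; cytosolic synthetases numbered 6 without a filter, 6 with all 12 libraries and 7 without WT replicate 2.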
